A study of Mus musculus with 8 samples.

Results

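The receptors through which neurons answer glutamate, GABA, glycine and acetylcholine were followed from pluripotent mouse cells to neural precursors, as the 67 genes whose array name marks them as subunits of ionotropic or metabotropic glutamate, GABA-A, glycine or nicotinic acetylcholine receptors. The rule reads the gene name and no signal, over 36163 gene names on the array, and 66 of them code for receptor subunits. The other 1, Grid2ip, matched the name rule but codes for a scaffold protein. By class there were 4 AMPA, 5 kainate, 7 NMDA, 2 delta, 8 metabotropic glutamate, 19 GABA-A, 5 glycine and 16 nicotinic genes, carried by 90 different probes.

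Fast transmission uses receptor channels built from several subunits around a pore, so a functional receptor requires a set of subunit genes to be on in the same cell. AMPA receptors carry most fast excitation in the brain, NMDA receptors gate calcium, kainate receptors modulate release and excitability, and metabotropic glutamate receptors signal through G proteins. GABA-A and glycine receptors pass chloride, which excites immature neurons and inhibits mature ones. Nicotinic receptors form neuronal types and a separate muscle type.

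The cells were E14Tg2A, a line of mouse embryonic stem cells, at 4 stages of neural differentiation. ES cells (day 0) grew in serum with LIF. Epiblast-like aggregates (ELA, day 2) floated in a defined medium with N2 and B27 and without serum or LIF, neural progenitor cells (NPC, day 6) then adhered on laminin in the same medium, and neural precursors (NPC/Neu, day 10) were replated and kept without B27. At each stage 1 array took total RNA and 1 array took Ago-RNA, the RNA recovered from the cytosolic fraction with an antibody to all Argonaute (Ago) proteins, which carry microRNAs to mRNAs. All 8 arrays came from 1 cell line and lay on 1 slide, and each held RNA pooled from 3 experiments, so no condition had a replicate and no test between stages was possible.

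A gene counted as detected when at least 1 of its probes was well above background in the scanner output. Signals are log2 normalized intensities, compared only within a probe. A gene is said to have risen or fallen where its signal changed at least 2-fold, 1 on the log2 scale. Where 1 of the arrays compared was below background, the change is a bound, "at least N-fold", measured against the dimmest signal called well above background there. The spot-to-spot SD of a log2 difference was between 0.21 and 0.25, from 399 probes printed 10 times. It covers technical spread and not the spread between cultures. Because these were bulk cultures, more cells expressing a gene and more RNA per cell cannot be told apart.

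The stage labels were checked against marker genes. All 5 pluripotency markers fell from ES to NPC/Neu, all 5 neural progenitor markers and all 8 neuronal markers rose, and the neuronal marker Dcx went from below background in ES to 14.04 in NPC/Neu total RNA. Between NPC and NPC/Neu 2 of the 5 pluripotency markers rose again, Esrrb 3.90-fold and Zfp42 2.08-fold. Of the primed epiblast markers 2 of 3 rose into ELA. From ES to NPC/Neu 2 of 5 oligodendrocyte markers rose, as did 1 of 3 mesendoderm markers tested, while of 3 astrocyte markers tested 0 rose and 1 fell. The astrocyte marker S100b was below background on the total RNA arrays and Gfap differed by 0.03 on the log2 scale between ES and NPC/Neu. Arrays differed in brightness, the upper quartile of their spots lying at 3039.2 for ES Ago-RNA and between 1060.3 and 1774.2 elsewhere.

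Receptor subunit genes were detected less often than array genes at large on every total RNA array, and the number was highest in NPC/Neu. In total RNA 32 of the 67 genes (47.8%) were detected in ES, then 29 (43.3%) at ELA, 34 (50.7%) at NPC and 38 (56.7%) at NPC/Neu. Over all gene names, the share detected was 65.6%, 60.6%, 65.5% and 64.3% at these stages. In Ago-RNA 39 members (58.2%) were detected in ES, then 29 (43.3%) at ELA, 30 (44.8%) at NPC and 41 (61.2%) at NPC/Neu, where the shares over all gene names were 66.7%, 59.5%, 60.6% and 61.0%. The member share thus stayed below the share over all gene names on all total RNA arrays and was close to it on the NPC/Neu Ago-RNA array. Among the 19914 gene names with a RefSeq mRNA, 73.7%, 70.1%, 73.0% and 72.2% were detected in total RNA. In Ago-RNA these shares were 76.5%, 70.4%, 71.1% and 72.0%. The member share was below them on every array, NPC/Neu Ago-RNA included.

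**Figure D1:**
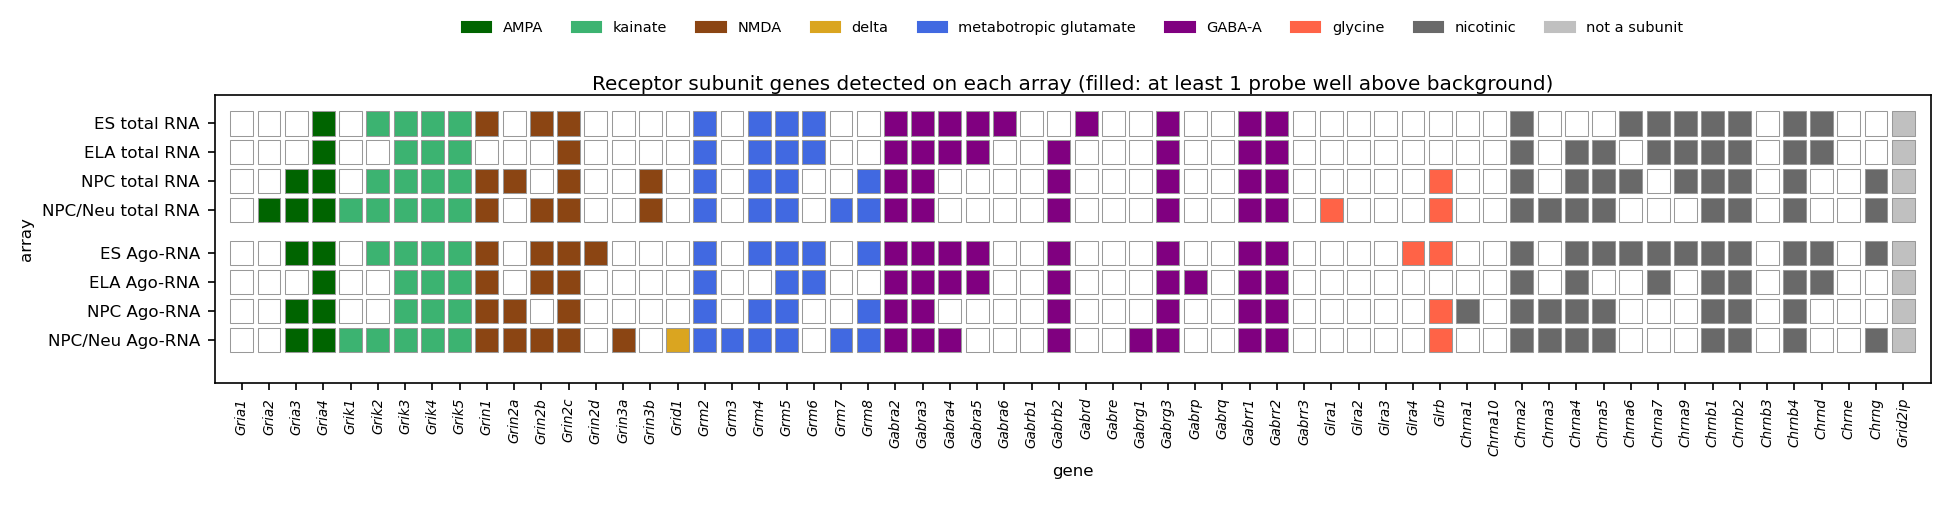
Detection of 62 of the genes (horizontal axis, grouped by receptor class) on the 8 arrays (vertical axis), with a filled square where at least 1 probe was well above background and an empty square otherwise. Of these, 17 were filled on all 8 arrays, 10 were empty throughout, and filled squares moved within the AMPA, kainate, glycine, GABA-A and nicotinic classes between ES and NPC/Neu.

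Behind these totals different genes were detected at different stages. In total RNA 20 genes were detected at all 4 stages, 18 at none, and 29 at 1 to 3 stages. Of the last, 15 (22.4% of the members) were below background in ES and detected in NPC/Neu, as were 5.33% of all gene names. Chrna4, Chrna5 and Gabrb2 were first detected in ELA. Gria3, Grin3b, Grm8, Glrb and Chrng followed in NPC. Gria2, Grik1, Grm7, Glra1 and Chrna3 were among those that appeared in NPC/Neu. In the other direction, 9 genes (13.4%) were detected in ES and not in NPC/Neu, against 6.55% of all gene names: Grm6, Gabra4, Gabra5, Gabra6, Gabrd, Chrna6, Chrna7, Chrna9 and Chrnd. Many of these genes lay near background, where 1 array per stage decides detection. Another 10 genes were below background on all 8 arrays: Gria1, Gabrb1, Gabre, Gabrq, Gabrr3, Glra2, Glra3, Chrna10, Chrnb3 and Chrne.

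Changes in total RNA were counted over genes detected on at least 1 of the arrays compared. From ES to ELA 8 of 35 members rose and 2 fell, where 4.87% and 4.58% of all gene names did. From ELA to NPC 4 of 39 rose and 7 fell, against 10.7% and 9.75%. From NPC to NPC/Neu 9 of 42 rose and 1 fell, against 6.1% and 4.36%, at the step where Esrrb and Zfp42 also rose, whose part in these counts was not tested. Over the whole course, ES to NPC/Neu, 12 of 47 rose (25.5%) and 2 fell (4.26%), against 16.9% and 16.2%. Between the end points the member share that rose was thus above the background and the share that fell below it. Of the 47, 15 were counted through detection in NPC/Neu alone and 9 through detection in ES alone. Where both arrays had to be above background, 5 of 23 rose (21.7%, against 16.8%). With the processed intensity 19 rose (40.4%, against 21.8% or 19.7%) under either scaling. The dimmest NPC/Neu total RNA signal called well above background was 6.79. A member dim in ES, such as Chrna7 at 7.48 or Gabra4 at 7.06, could therefore not be called 2-fold lower. The part of this floor in the low share of falls was not tested. The count of falls moved with the processing, from 2 to 5 (10.6%, against 17.5%) with an offset of 16 and to 8 (17.0%, against 20.7% or 25.7%) with the processed intensity under either scaling, and to 0 where both arrays had to be above background. Between the end points more members rose than fell, while the step into NPC held more falls than rises. The median log2 change of the members measured on both arrays was 0.31, -0.21 and 0.29 over the successive steps and 0.41 from ES to NPC/Neu, beside 0.03, -0.04, -0.03 and -0.05 over all gene names. Of the 12 members that rose, 7 were below background in ES, so their fold is a lower bound. Both of the members that fell were below background in NPC/Neu.

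**Figure D2:**
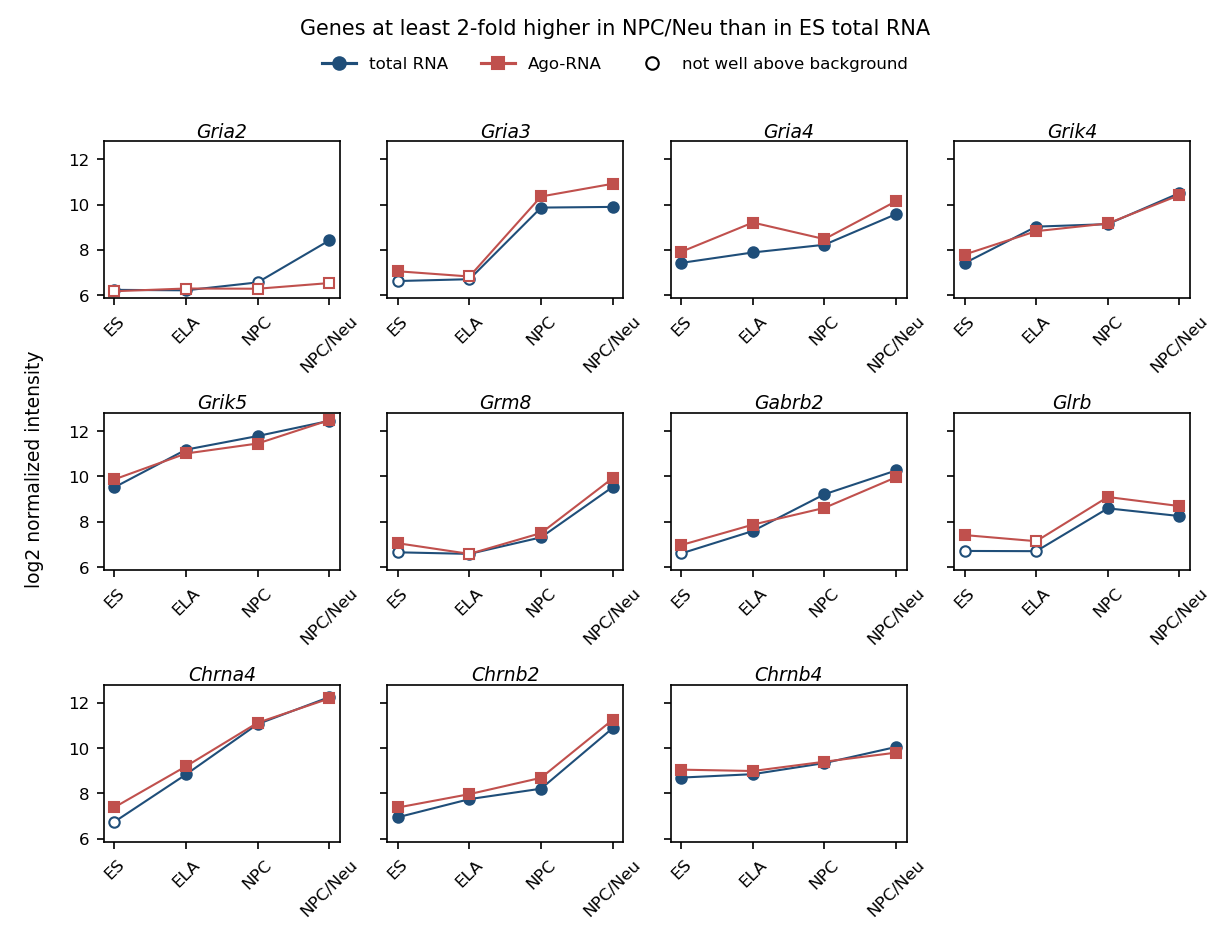
Shown are 11 of the 12 genes at least 2-fold higher in NPC/Neu than in ES total RNA. Each panel shows the log2 normalized intensity of 1 probe (vertical axis) at the 4 stages (horizontal axis), circles for total RNA and squares for Ago-RNA, with open symbols where the spot was not well above background. Chrna4 rose at every step, Chrnb2 and Grm8 mostly at the last, Gria3 at the step into NPC, and Gria2 is filled in NPC/Neu total RNA but open in Ago-RNA.

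Among the AMPA receptor genes, 3 of 4 rose from ES to NPC/Neu on their representative probes, where 16.9% of all gene names did. Only Gria3 rose at least 2-fold on both of its probes. Gria1 (GluA1) stayed below background on every array. Gria3 (GluA3) measured 6.63, 6.71, 9.87 and 9.90 in the total RNA of ES, ELA, NPC and NPC/Neu, and 7.06, 6.83, 10.36 and 10.92 in Ago-RNA. It was below background in the total RNA of ES and ELA, so its rise from ES to NPC/Neu was at least 8.92-fold, nearly all of it at the step into NPC. Gria4 (GluA4), the subunit of fast-gating AMPA receptors, was detected throughout, at 7.43, 7.89, 8.23 and 9.58 in total RNA and 7.92, 9.21, 8.48 and 10.15 in Ago-RNA, a 4.43-fold rise in total RNA. Each of these genes has a second probe in its coding sequence. It is shown here because it lets the same gene be read at another place, as 30 bases of the transcript before the probe, the 60 bases on the array in capitals, and 30 bases after it (mm9, GENCODE vM1 transcripts).
Gria3, chrX:39007367-39007426, plus strand: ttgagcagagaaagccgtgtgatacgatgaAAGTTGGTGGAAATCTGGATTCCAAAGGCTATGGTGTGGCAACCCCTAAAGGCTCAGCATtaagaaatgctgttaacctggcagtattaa
Gria4, chr9:4502385-4502444, minus strand: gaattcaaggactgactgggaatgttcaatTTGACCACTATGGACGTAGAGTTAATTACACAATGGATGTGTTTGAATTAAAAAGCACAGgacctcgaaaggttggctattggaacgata
The coding probe of Gria3 was detected on the same 5 arrays as the first, and gave a rise of at least 2.38-fold from ES to NPC/Neu. On the coding probe of Gria4 the total RNA values were 7.29, 7.88, 7.37 and 8.14, a 1.80-fold difference that did not reach 2-fold. The direction held in both genes, and the size depended on where the transcript was read.

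Gria2 codes for GluA2, the subunit that makes AMPA receptors impermeable to calcium. It was read at 6.24, 6.22, 6.57 and 8.42 in total RNA and at 6.18, 6.30, 6.29 and 6.54 in Ago-RNA. The NPC/Neu total RNA array alone was above background, at least 3.21-fold over ES. This probe lies at chr3:80495725-80495784 (mm9, minus strand), within an intron of the GENCODE vM1 gene, and the probe in the 3′ UTR of Gria2 was below background on all 8 arrays. The array annotation assigns the detected probe to a RefSeq mRNA of Gria2, so the transcript it reads is not settled. The annotated 3′ end gave no signal.

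Of the kainate receptor genes, Grik3, Grik4 and Grik5 were detected at all stages from ES on. Grik5 (GluK5), a high-affinity subunit that works only together with GluK1 to GluK3, measured 9.52, 11.18, 11.78 and 12.45 in total RNA and 9.87, 11.01, 11.45 and 12.48 in Ago-RNA, rising 7.62-fold. Grik4 (GluK4), its close relative, measured 7.42, 9.03, 9.14 and 10.51 in total RNA and 7.80, 8.83, 9.17 and 10.42 in Ago-RNA, an 8.50-fold rise. Both had risen by ELA already, Grik5 3.16-fold and Grik4 3.05-fold over ES. Grik3 (GluK3) instead went up and down, at 10.96, 12.18, 9.97 and 11.34 in total RNA and 11.75, 12.02, 10.60 and 12.53 in Ago-RNA. It rose 2.34-fold into ELA, fell 4.64-fold into NPC and rose 2.58-fold into NPC/Neu, ending within 0.38 of the ES value on the log2 scale. A second Grik3 probe was weak and was detected on 5 arrays. With the mean of both probes the successive log2 changes were 0.74, -1.45 and 0.92, so only the fall into NPC reached 2-fold. Grik1, read by a probe just past its annotated 3′ end, was above background in NPC/Neu alone (7.33 in total RNA, 7.73 in Ago-RNA). Grik2 was detected in ES, NPC and NPC/Neu total RNA, at 7.03, 7.04 and 7.85. All 5 kainate genes were thus detected in NPC/Neu.

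NMDA receptors need the GluN1 subunit, coded by Grin1, together with GluN2 or GluN3 subunits. Grin1 measured 7.43, 7.20, 7.72 and 8.13 in total RNA, below background in ELA, and 8.24, 7.74, 7.46 and 9.34 in Ago-RNA. Its total RNA passed 2-fold at no step. The gene was read by a probe in the 3′ UTR, while a probe in coding sequence was below background on all 8 arrays. Grin2c (GluN2C), known from the adult cerebellum, peaked early, at 7.00, 9.23, 8.81 and 7.54 in total RNA and 7.16, 8.85, 8.95 and 8.21 in Ago-RNA. It rose 4.66-fold into ELA and fell 2.42-fold from NPC to NPC/Neu. Grin2a (GluN2A) was above background in NPC total RNA at 7.22, and Grin2b (GluN2B), the main GluN2 subunit of the embryonic brain, in ES at 7.04 and NPC/Neu at 7.50. Grin3b was barely above background in NPC and NPC/Neu total RNA, at 7.17 and 7.07. Grin2d and Grin3a were detected in Ago-RNA only, in ES (7.07) and NPC/Neu (7.97). In NPC/Neu total RNA GluN2C and GluN2B were thus both detected, and both weakly. The delta receptor gene Grid1 was above background in NPC/Neu Ago-RNA alone (7.48). Grid2ip, which is no receptor subunit, was detected on all arrays, at 8.43, 8.53, 8.0 and 8.15 in total RNA and 8.92, 8.54, 8.21 and 8.63 in Ago-RNA, with no 2-fold change.

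The 8 metabotropic receptor genes split by stage. Grm6 (mGlu6), the receptor of retinal bipolar cells, measured 9.56 and 9.70 in ES and ELA total RNA and 6.43 and 6.39, below background, in NPC and NPC/Neu. In Ago-RNA it measured 9.36, 9.05, 6.73 and 6.78. It fell at least 7.75-fold into NPC and at least 6.81-fold over the whole course. Grm8 (mGlu8), a presynaptic receptor, ran the other way, at 6.65, 6.58, 7.31 and 9.53 in total RNA and 7.05, 6.58, 7.50 and 9.92 in Ago-RNA. It rose at least 6.89-fold, and 4.64-fold from NPC to NPC/Neu. Grm7 (mGlu7) was just above background in NPC/Neu total RNA (6.99) and was clearer in Ago-RNA (8.33). Grm3 was detected in NPC/Neu Ago-RNA alone, at 7.77. Grm2, Grm5 and Grm4 were on throughout or nearly so. Grm2 measured 9.89, 10.03, 9.75 and 10.46 in total RNA and 9.76, 9.95, 10.01 and 10.58 in Ago-RNA. Grm5 measured 8.30, 8.47, 8.07 and 7.79 in total RNA and 8.23, 8.84, 8.41 and 8.01 in Ago-RNA, on a probe at chr7:94732759-94732818 that lies outside the annotated gene. Its probes inside the gene were below background in total RNA. Grm4 measured 7.23, 7.68, 7.53 and 7.46 in total RNA on its 3′ UTR probe, whereas its coding probe gave 6.82, 7.13, 7.39 and 8.43 and a rise of at least 3.06-fold. For Grm4 the representative probe thus showed no 2-fold change and the other probe did.

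Most GABA-A subunit genes lie in chromosome clusters, and neighbours in a cluster did not share one course (coordinates are mm9, GENCODE vM1 genes). On chromosome 11, Gabrb2 (beta 2) measured 6.60, 7.59, 9.21 and 10.26 in total RNA and 6.97, 7.87, 8.61 and 9.96 in Ago-RNA. It was below background in ES and rose at least 11.4-fold. Gabra6 (alpha 6), the cerebellar granule cell subunit and its neighbour there, was above background on the ES total RNA array alone (7.55, with 6.29, 6.34 and 6.15 at the later stages, and 6.49, 6.59, 6.46 and 6.30 in Ago-RNA).

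On chromosome 7, Gabra5 (alpha 5) measured 7.88, 7.13, 6.82 and 6.91 in total RNA and 8.70, 7.72, 6.81 and 6.80 in Ago-RNA, above background in ES and ELA only. Gabrg3 (gamma 3) had 4 probes. Those in coding sequence end at different stop codons of the gene and are shown because 1 was detected on all 8 arrays and the other on none, with the 30 bases before each and the probe in capitals.
Gabrg3, chr7:63979783-63979842, minus strand, detected on 8 arrays: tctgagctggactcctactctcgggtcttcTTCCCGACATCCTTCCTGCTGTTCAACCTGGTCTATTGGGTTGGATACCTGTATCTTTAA
Gabrg3, chr7:64434940-64434999, minus strand, detected on 0 arrays: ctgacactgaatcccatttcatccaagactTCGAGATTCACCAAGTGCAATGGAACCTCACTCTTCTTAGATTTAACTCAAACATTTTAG
The first measured 7.42, 7.29, 6.98 and 7.43 in total RNA and 7.91, 8.15, 7.86 and 7.55 in Ago-RNA. Its total RNA signal did not change 2-fold. Of the other 2 probes, both in the 3′ UTR, 1 was detected on 0 arrays, and 1 was detected on 6, at 7.26, 7.74, 6.92 and 7.48 in total RNA and 8.64, 9.35, 6.82 and 7.99 in Ago-RNA, with log2 ratios of Ago-RNA over total RNA of 1.38 in ES and 1.61 in ELA. The probes of Gabrg3 thus gave different readings.

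The cluster at chr5:71142286-72529628 holds Gabrg1, Gabra2, Gabra4 and Gabrb1. Gabra4 (alpha 4) was above background in ES and ELA, at 7.06 and 7.80, and fell at least 2.07-fold into NPC (6.63, then 6.73). Its Ago-RNA values were 7.76, 8.46, 6.54 and 7.02. Gabrg1 was above background in NPC/Neu Ago-RNA alone. It was printed 10 times on each array, and its spots there averaged 7.72 with an SD of 0.13 over 10 spots, against 6.95 with an SD of 0.17 in NPC/Neu total RNA. Gabra2 (alpha 2), a main alpha subunit of the embryonic brain, gave opposite readings. A probe made from a cDNA clone, at chr5:71352275-71352334 and running past the annotated 3′ end, measured 10.82, 9.11, 9.93 and 9.95 in total RNA and 8.53, 8.23, 8.18 and 8.59 in Ago-RNA. The probe for the RefSeq mRNA, at chr5:71352306-71352365 and overlapping it, measured 6.75, 6.46, 6.94 and 7.89 in total RNA and 7.77, 7.09, 6.96 and 7.95 in Ago-RNA. The first fell 3.27-fold from ES to ELA, and the second differed by at least 2.20-fold between ES and NPC/Neu. The gene therefore has no single course on this array.

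On the X chromosome (chrX:69501338-70087941) Gabre and Gabrq were below background throughout, while Gabra3 (alpha 3) between them was detected on all arrays. It measured 9.74, 11.43, 10.14 and 10.15 in total RNA and 9.78, 11.76, 9.75 and 10.48 in Ago-RNA, rising 3.22-fold into ELA and falling 2.44-fold into NPC. A second 3′ UTR probe of Gabra3 was weak and flat in total RNA, at 7.18, 7.09, 6.96 and 7.01, and with the mean of both probes the changes were 0.80 and -0.71 on the log2 scale, short of 2-fold. The rho subunits Gabrr1 and Gabrr2, adjacent at chr4:33149974-33250563 and known from the retina, were on throughout. Gabrr1 measured 8.23, 8.25, 8.40 and 8.19 in total RNA and 8.78, 8.60, 8.67 and 8.62 in Ago-RNA. Gabrr2 measured 12.86, 12.80, 12.69 and 11.91 in total RNA and 10.97, 12.02, 11.59 and 10.46 in Ago-RNA. Neither changed 2-fold in total RNA. Gabrd was above background in ES total RNA alone (7.01, with 6.70, 6.51 and 6.33 later, and 6.77, 6.59, 6.72 and 6.85 in Ago-RNA), and Gabrp in ELA Ago-RNA alone (7.23). Counted together, 2 of 13 GABA-A genes tested rose from ES to NPC/Neu and 0 fell 2-fold, where 16.9% and 16.2% of all gene names did, so the rises were close to the background.

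The glycine receptor was detected mainly by its beta subunit. Glrb, which anchors glycine receptors to gephyrin, measured 6.71, 6.70, 8.59 and 8.25 in total RNA and 7.41, 7.14, 9.09 and 8.69 in Ago-RNA. It was below background in ES and ELA total RNA and rose at least 2.84-fold over ES. Among the alpha genes, Glra1 was above background in NPC/Neu total RNA alone, at 7.12 (6.21, 6.49 and 6.81 before, and 6.74, 6.75, 6.66 and 6.83 in Ago-RNA), on 1 of its 2 probes. Glra4 was detected in ES Ago-RNA alone (7.06), and Glra2 and Glra3 on no array.

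In the nicotinic class the alpha and beta genes of the main brain receptor rose. Chrna4 (alpha 4) measured 6.75, 8.84, 11.06 and 12.25 in total RNA and 7.39, 9.20, 11.12 and 12.19 in Ago-RNA. Below background in ES, it rose at least 45.2-fold, and at each of the 3 steps at least 2-fold (at least 4.27-fold, 4.63-fold and 2.28-fold). Its partner Chrnb2 (beta 2) measured 6.95, 7.75, 8.21 and 10.88 in total RNA and 7.38, 7.97, 8.69 and 11.25 in Ago-RNA, rising 15.3-fold, with 6.36-fold from NPC to NPC/Neu. The cluster at chr9:54828687-54896351 holds the ganglionic subunits. There Chrnb4 (beta 4) measured 8.70, 8.85, 9.34 and 10.05 in total RNA and 9.05, 8.99, 9.40 and 9.80 in Ago-RNA, a 2.55-fold rise. Chrna3 (alpha 3) was first detected in NPC/Neu total RNA (7.37) and in NPC Ago-RNA (7.53), and Chrna5 from ELA on (7.23, 7.02 and 7.26), without a 2-fold change. Chrnb1, the beta subunit of the muscle receptor, measured 7.93, 8.05, 7.78 and 8.06 in total RNA and 8.27, 7.77, 7.68 and 8.07 in Ago-RNA, with no 2-fold change.

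Other nicotinic genes were high early. Chrna9 (alpha 9), the subunit of cochlear hair cells, measured 11.20, 7.53, 7.06 and 6.45 in total RNA and 10.40, 7.05, 6.84 and 6.48 in Ago-RNA. It fell 12.8-fold from ES to ELA and at least 21.3-fold by NPC/Neu. Chrnd (delta) of the muscle receptor measured 7.62, 9.15, 6.56 and 6.77 in total RNA and 7.70, 9.55, 6.43 and 6.78 in Ago-RNA, with a 2.89-fold rise into ELA and a fall of at least 5.30-fold into NPC. Chrng (gamma), its neighbour on chromosome 1 and the fetal muscle subunit, was instead above background in NPC and NPC/Neu total RNA (7.12 and 7.13), and its Ago-RNA values were 7.14, 7.14, 6.99 and 8.56. The muscle alpha gene Chrna1 was detected in NPC Ago-RNA alone and Chrne on no array, so no stage had the whole muscle receptor in total RNA. Of 5 muscle markers, the master regulators Myod1 and Myog were below background on all total RNA arrays, and the other 3, Des, Actc1 and Ttn, all fell from ES to NPC/Neu. Actc1, at 10.34, 11.84, 8.08 and 6.80, peaked in ELA as Chrnd did. From ES to ELA Des was flat, at 9.02 and 9.11, and Ttn fell 6.05-fold, from 10.1 to 7.51. The part of muscle-like cells in the Chrnd values was not tested. Chrna2 measured 9.07, 10.64, 8.91 and 8.88 in total RNA, a 2.95-fold rise into ELA and a 3.32-fold fall into NPC, while its Ago-RNA signal stayed at 9.06, 9.06, 9.10 and 8.94. Chrna7 (alpha 7), printed 10 times, averaged 7.48, 7.89, 6.85 and 6.90 in total RNA (spot SD 0.12, 0.25, 0.24 and 0.12 over 9 or 10 spots) and 7.53, 7.89, 6.85 and 7.09 in Ago-RNA, a fall of at least 2.06-fold into NPC. Chrna6 stayed near background, at 7.39, 7.16, 7.07 and 6.92 in total RNA and 6.92, 6.79, 6.82 and 6.97 in Ago-RNA.

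**Figure D3:**
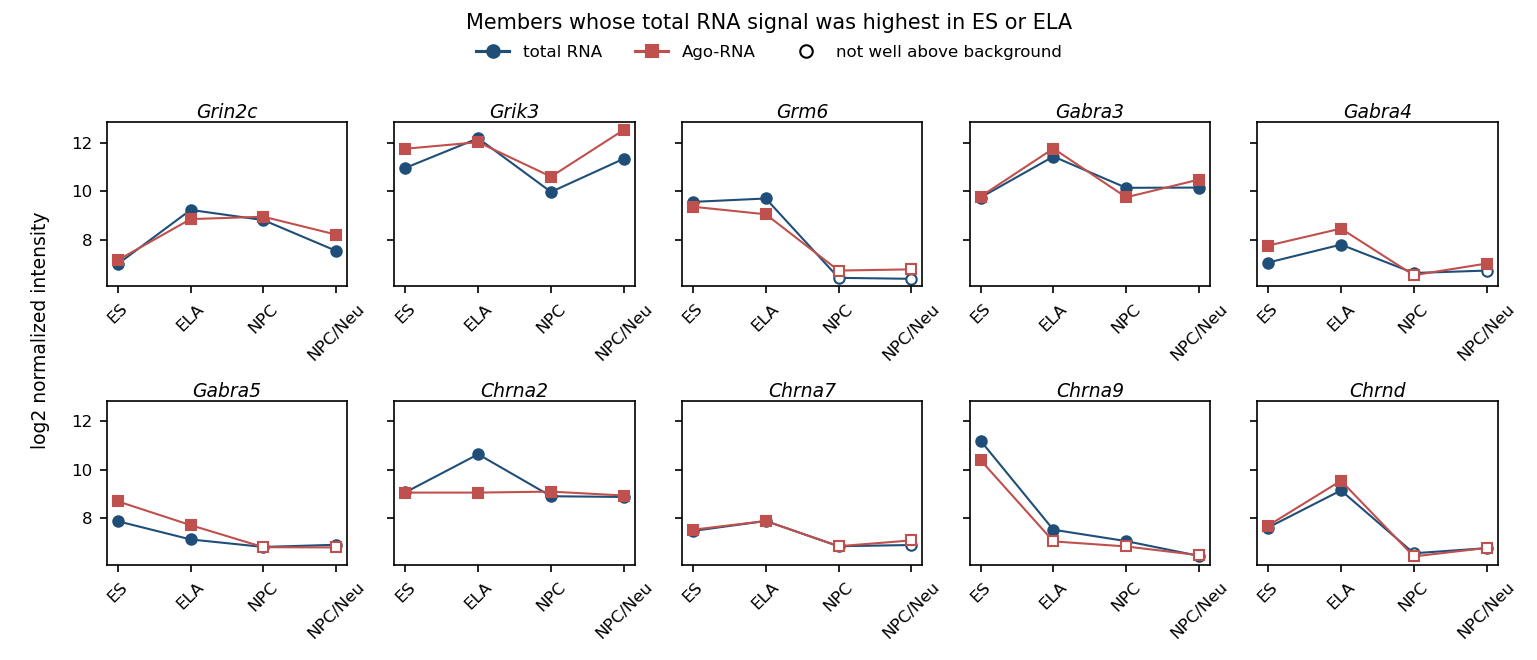
The 10 members shown had their highest total RNA signal in ES or ELA. Panels, axes and symbols are log2 normalized intensity of 1 probe against stage, circles for total RNA, squares for Ago-RNA, open where not well above background. Chrna9 dropped from 11.20 to 7.53 between ES and ELA, Grm6 and Chrnd fell below background in NPC, and the ELA peak of Chrna2 is present in total RNA and absent in Ago-RNA.

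Ago-RNA over total RNA compares the immunoprecipitated with the total signal of the same probe at the same stage, as a log2 ratio. Under the main processing few members passed 2-fold in either direction before the last stage. In ES 1 of 41 was at least 2-fold higher in Ago-RNA and 2 were lower, where 10.5% and 11.7% of all gene names were. In ELA the counts were 2 and 1 of 32, against 4.08% and 3.17%. In NPC they were 1 and 2 of 36, against 5.84% and 6.46%. In NPC/Neu they were 6 and 3 of 44 (13.6% and 6.82%), against 11.9% and 12.5%. The share higher in Ago-RNA was thus close to the background in NPC/Neu, and the share lower in Ago-RNA was under the background in ES and NPC/Neu and close to it in ELA and NPC. The median log2 ratio of members measured on both arrays was 0.25 at ES (30 genes), 0.18 at ELA (26), 0.19 at NPC (28) and 0.36 at NPC/Neu (35), beside 0.03, -0.03, 0.05 and 0.09 over all gene names. These ratios are relative to the other RNAs of each array, not amounts bound.

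**Figure D4:**
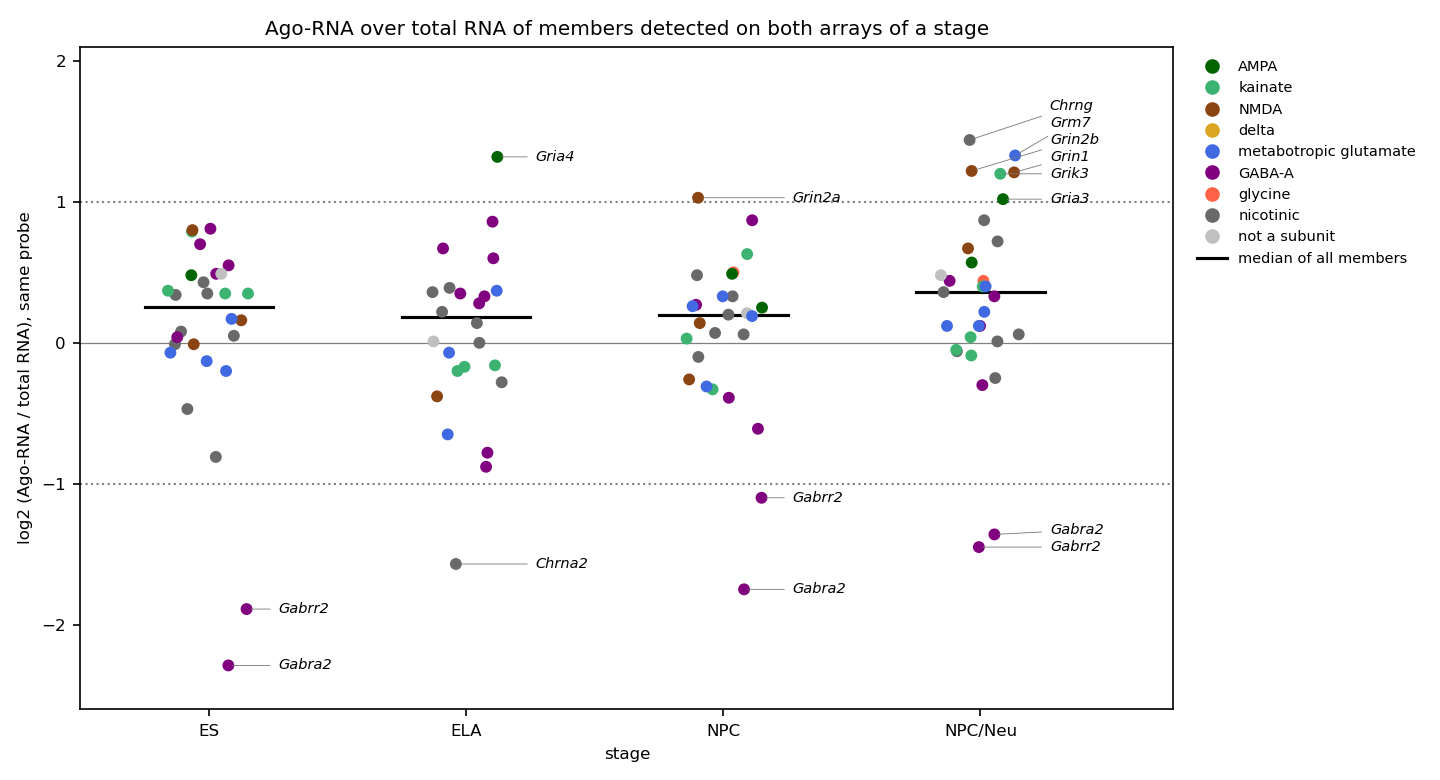
Ago-RNA over total RNA on the same probe, on the log2 scale (vertical axis) for members detected on both arrays of a stage (horizontal axis), 1 point per gene for the 62 genes of the detection plot, coloured by receptor class, with the median over all members as a black bar and 2-fold limits dotted. Gabrr2 and Gabra2 lie below the lower limit in ES, NPC and NPC/Neu, and 6 genes lie above the upper limit in NPC/Neu.

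In NPC/Neu the 6 genes above 2-fold came from 5 classes. Chrng had a log2 ratio of 1.44, Grm7 of 1.33, Grin2b of 1.22, Grin1 of 1.21, Grik3 of 1.20 and Gria3 of 1.02. With the mean of all probes of a gene, 3 members were above 2-fold. Grin1 then stood at 0.50 and Grin2b at 0.87. The second Grik3 probe, below background in NPC/Neu total RNA, gave a bound of 0.64. The second Grin2b probe gave 0.52, and the coding probe of Gria3 gave 2.43. At earlier stages Gria4 reached 1.32 in ELA (1.10 on its coding probe), and Grin2a 1.03 in NPC (0.50 on its coding probe). Grin3a, below background in total RNA, was at least 1.99-fold higher in NPC/Neu Ago-RNA.

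On the lower side, Gabrr2 had log2 ratios of -1.89, -0.78, -1.10 and -1.45 from ES to NPC/Neu, and the clone-derived Gabra2 probe -2.29, -0.88, -1.75 and -1.36. The RefSeq probe of Gabra2, overlapping it, was at least 2.02-fold higher in Ago-RNA in ES and gave 0.06 in NPC/Neu, so the pair differed in direction in ES. Chrna2 stood at -1.57 in ELA and between -0.01 and 0.20 at the other stages, and its total RNA peak had no counterpart in Ago-RNA. For Gria2 the NPC/Neu ratio was a bound of -1.47 or lower, on the probe described above, whose transcript is not settled. Chrna4, Grik4, Grik5 and Chrnb4, which rose in total RNA, kept log2 ratios between -0.33 and 0.37 at the stages measured on both arrays. The Ago-RNA of Chrna4, Grik4 and Grik5 rose as well, while that of Chrnb4 went from 9.05 to 9.80, less than 2-fold. The other members that rose left this range at some stage, among them Gabrb2 at -0.61 in NPC and Gria4 at 1.32 in ELA. Another 8 genes were detected in Ago-RNA and on no total RNA array: Grin2d and Glra4 in ES, Gabrp in ELA, Chrna1 in NPC, and Grin3a, Grid1, Grm3 and Gabrg1 in NPC/Neu. On the ES Ago-RNA array, which had the highest upper quartile of signal, 39 members were detected against 32 in total RNA, and the part of signal strength in this difference was not tested.

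The promoters of the members were searched because many genes of neurons carry RE1, the element bound by the repressor REST in cells other than neurons. Of the 67 genes, 47 had a promoter in the RefSeq set (GRCm38.p6, 250 bases before to 50 after the start), as had 10 of the 12 that rose from ES to NPC/Neu and both that fell. Motifs were counted on both strands as exact letters. The right arm of RE1, GGACAGCGC, was found in Gria2 alone, and in 0.405% of all 32851 promoters. The left arm of RE1, TTCAGCACC, was found in Grm2 alone, and in 0.371%. The GC box GGGCGG, the site of Sp1, was in 26 of the 47 genes, in 7 of the 10 that rose and in 0 of the 2 that fell, beside 38.2% of all gene symbols. The E-box CAGCTG was in 7 of the 47 (18.3% of symbols), the TATA box TATAAA in 5 (15.7%) and CCAAT in 17 (41.1%). The upstream 250 bases of Gria2, with the RE1 arm on the reverse strand in capitals, and of Chrna4, which rose at every step, with its GC boxes on either strand in capitals, are the following.
Gria2 promoter, GRCm38.p6 chr3:80802836-80803085, minus strand: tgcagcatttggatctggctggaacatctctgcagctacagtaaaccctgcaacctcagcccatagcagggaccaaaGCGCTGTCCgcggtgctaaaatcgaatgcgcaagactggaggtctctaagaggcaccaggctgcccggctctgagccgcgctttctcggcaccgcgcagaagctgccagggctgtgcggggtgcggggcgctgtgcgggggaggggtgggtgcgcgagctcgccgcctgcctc
Chrna4 promoter, GRCm38.p6 chr2:181039178-181039427, minus strand: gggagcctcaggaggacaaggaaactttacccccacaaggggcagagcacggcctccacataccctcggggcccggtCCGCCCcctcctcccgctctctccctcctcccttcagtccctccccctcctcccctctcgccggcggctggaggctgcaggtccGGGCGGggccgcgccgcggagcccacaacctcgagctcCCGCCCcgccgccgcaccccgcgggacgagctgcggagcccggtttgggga
A match of letters is a description of the sequence and no binding was measured here.

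The proteins around the receptors were read from a list of 38 receptor partners (scaffolds, auxiliary subunits, assembly factors and related receptors) and a list of 19 genes of transmitter synthesis and transport, of which 18 were matched by name. From ES to NPC/Neu 16 of 34 partners tested rose and 0 fell 2-fold, beside the 16.9% and 16.2% of all gene names given above. Postsynaptic scaffold and adhesion genes were among them. Nlgn2, at inhibitory synapses, rose 9.88-fold, Dlg4 (PSD-95), at excitatory ones, 7.46-fold, and Gphn (gephyrin), which holds glycine and GABA-A receptors, 3.60-fold. So were auxiliary subunits of AMPA receptors, with Cacng4 rising at least 14.6-fold over ES, Cnih2 6.28-fold and Cacng2 (stargazin) at least 4.28-fold. Neto2, an auxiliary subunit of kainate receptors, rose 4.44-fold. Gabbr1, a subunit of the metabotropic GABA-B receptor, rose 3.37-fold, while its partner Gabbr2 measured 8.08, 6.94, 7.54 and 7.49 and did not change 2-fold between the end points. Rapsn, which clusters the muscle nicotinic receptor, measured 15.00, 15.02, 14.68 and 14.78 in total RNA.

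Of the 18 transmitter genes 9 rose from ES to NPC/Neu and 0 fell 2-fold, and all 18 were detected in NPC/Neu total RNA, against 12 in ES. Slc17a6 (VGLUT2), which loads glutamate into vesicles, measured 6.76, 8.18, 8.65 and 11.83 in total RNA and rose at least 33.7-fold. For GABA, Gad2 measured 6.73, 7.05, 6.70 and 10.48 and rose at least 13.4-fold, and the vesicular transporter Slc32a1 measured 9.22, 10.21, 7.11 and 11.69 and rose 5.53-fold. Slc6a9, a glycine transporter, rose 8.62-fold and Slc1a2, a glutamate transporter, at least 12.9-fold. Chat, which makes acetylcholine, measured 7.02, 6.68, 6.96 and 7.24, a difference of 0.22 on the log2 scale between the end points. In NPC/Neu Ago-RNA over total RNA, 4 of 32 partners were at least 2-fold higher and 1 lower, and 1 of 18 transmitter genes was higher and 0 lower. Over all gene names the shares were 11.9% and 12.5%, so the partners higher in Ago-RNA were close to the background.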

How the data were processed

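Total RNA and Ago-RNA of 4 stages were hybridized to 8 single-color Agilent SurePrint G3 mouse arrays, 1 per condition. The authors deposited the spot intensity as Feature Extraction wrote it (version 10.7.3.1 per the file headers, 9.1 per the labels), not normalized between arrays. In limma 3.58.1 (R 4.3.3), the local background of each spot was removed from its mean intensity by normexp with an offset of 50. Spots marked irregular were dropped, the 8 arrays were brought to the same log2 distribution by quantile normalization, and spots of 1 probe were averaged. Changes are therefore relative to the other probes. A gene is represented by the probe well above background on most arrays, and then the brightest. Probes were placed on GENCODE vM1 (mm9): of 90, 56 lay in 3′ UTRs, 19 in coding sequence, and 8 matched no coding transcript. Other values were computed with Python 3.11.15 and pandas 2.3.3. The steps were tested on simulated data. The members, the marker and gene lists and the naming rule were chosen with earlier results of these data known. The rule named up to 3 genes per class with the largest total RNA range, genes detected on all arrays, genes lost by NPC/Neu and genes with 2-fold Ago-RNA ratios (for the last, the 4 highest and 4 lowest). A total of 5 members enter the counts and medians and are not reported by name here. In NPC/Neu all 6 above 2-fold are named, as are further genes chosen after their values were seen. Alternatives tried were an offset of 16, the processed intensity with quantile or 75th percentile scaling, quantile normalization within each RNA type, means over probes, stricter and looser detection, and measured values alone. Proteomic, ribosome and perturbation data of the study were not used here.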

Additional observations from a re-analysis of the deposited data

How the results depend on the processing

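All 359 recomputed values of the genes that passed 2-fold kept their sign under the alternatives run. Part of this agreement is built in. The 44 values with both arrays above background repeat the main ones, as do probe means of genes with 1 probe. The genes were also chosen for a 2-fold change on the same arrays. The counts moved. With the processed intensity, quantile normalized, members higher and lower numbered 13 and 4 from ES to ELA and 19 and 8 from ES to NPC/Neu. For Ago-RNA over total RNA they numbered 9 and 4 in ES and 4 and 2 in ELA, and 4 were higher in NPC and 14 in NPC/Neu. Scaled to the 75th percentile, 13 rose from ES to ELA (37.1%, against 8.75%) and 15 from NPC to NPC/Neu (35.7%, against 9.17%). From ES to NPC/Neu 19 rose and 8 fell (40.4% and 17.0%, against 19.7% and 25.7%). Ratios were lower for 4 in ES (9.76%, against 26.0%) and 4 in ELA (12.5%, against 8.68%), and higher for 4 in NPC (11.1%, against 7.46%). That scaling moved the median over all gene names from -0.04 to -0.21 from ELA to NPC, from -0.05 to -0.23 from ES to NPC/Neu and from 0.03 to -0.29 for the ES ratio. With an offset of 16, 5 fell from ES to NPC/Neu (10.6%, against 17.5%) and 2 had higher ratios in NPC (5.56%, against 6.91%). With quantile normalization within each RNA type, 2 had higher ratios in ES (4.88%, against 16.9%). In NPC 0 had higher and 1 a lower ratio (0.0% and 2.78%, against 11.6% and 4.24%). With the mean of all probes, 0 had higher and 1 a lower ratio in NPC (0.0% and 2.78%, against 5.32% and 5.75%), and 3 had higher ratios in NPC/Neu (6.82%, against 10.9%). Where both arrays had to be well above background, 2 rose and 3 fell from ELA to NPC (8.33% and 12.5%, against 10.4% and 9.38%). From ES to NPC/Neu 5 rose and 0 fell (21.7% and 0.0%, against 16.8% and 15.9%). Bounds were left out there by construction. With detection above the local background instead, 49 members were detected in ES, 44 in ELA and 54 in NPC total RNA. The share over all gene names under this looser detection was not computed. These 3 counts can therefore not be set beside the shares given for the main detection. For the other alternatives the cause was not tested. Weak signals limit the set: many members lie near background, where 1 array per stage cannot separate a small change from array error.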
